A study of Homo sapiens with 4 samples.

Results

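The 10 genes described here encode the NF-kB transcription factor subunits (NFKB1, NFKB2, REL, RELA and RELB), the proteins that hold them inactive (NFKBIA, NFKBIB and NFKBIE), the kinase that releases them (IKBKB) and a feedback inhibitor of the pathway (TNFAIP3). They were taken by name from a list, with no threshold on a measured value, and are 10 of the 19974 protein-coding genes on chromosomes 1 to 22 and X in the gene table used. The measurements come from ChIP-seq on MDA-MB-231 cells of 1 subclone, labelled wild type and grown without treatment; the line is established and derives from a human triple-negative breast cancer. Chromatin was precipitated with an antibody to the HA epitope tag in the 2 samples labelled PD-L1, replicates 1 and 2, and each has an input sample of the same replicate number with no antibody. The series text calls the replicates biological and independent. The sources used here do not say how the tag reached the cells, or on which form of the protein. No precipitation from cells without the tag was analysed here, so chromatin recovered without the target cannot be told apart from chromatin recovered with it.

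NF-kB subunits pair through a shared Rel homology domain and bind short DNA elements called kappa B sites. In resting cells most pairs are kept in the cytoplasm by the inhibitor proteins of the IkB family. When cytokine or pathogen receptors are engaged, the IKK kinase phosphorylates the inhibitors, they are degraded, and the released pairs enter the nucleus. Several genes of the system, among them the inhibitor gene NFKBIA, are themselves NF-kB targets, which makes a feedback loop. CD274, the gene of PD-L1, is a known target too.

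Each replicate came as a list of broad peaks. On the chromosomes used, the first list held 166548 and the second 93591. For each peak the authors' caller gave a fold enrichment over background and a −log10 q, where q is the p-value adjusted for the number of places tested. Median fold enrichment was 3.14 in the list of replicate 1 and 2.27 in that of replicate 2, and the median −log10 q was 1.91 and 1.80, above a calling limit of 1.30. Read depth is unknown, since only the lists were analysed. The peak names of replicate 2 hold the word Merge, and the sources used here do not say what was merged. A window was the gene span plus 10 kb on each side, a gene-end window reached 1 kb to each side of a gene end, and a shared region was the union of overlapping peaks with at least 1 peak from each replicate.

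NFKB2, REL and NFKBIA had promoters that met a shared region, and for that reason 4 of these are shown. The promoter left out held no match to the kappa B element that NF-kB itself binds. The sequence table from RefSeq (GRCh38.p14, the same build as hg38) held entries for 7 of the 10 genes, with 12 promoters of 300 bases, each from 250 bases before a start site to 50 after it. Capitals mark the match to the kappa B consensus, a motif of 10 letters searched on both strands, and matches shifted by 1 base overlap. NFKB2 had 3 start sites in the table, of which the first had no match and is not shown. The promoters are, 5′ to 3′ on the strand of the gene:
NFKB2, the second start (chr10:102394328-102394627, plus strand): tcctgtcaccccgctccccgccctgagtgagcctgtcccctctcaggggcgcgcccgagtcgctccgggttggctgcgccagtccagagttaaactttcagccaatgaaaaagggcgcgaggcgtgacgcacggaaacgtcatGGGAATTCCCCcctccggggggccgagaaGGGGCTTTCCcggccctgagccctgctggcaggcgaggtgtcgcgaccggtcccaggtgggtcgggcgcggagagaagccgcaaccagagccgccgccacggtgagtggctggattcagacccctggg
NFKB2, the third start (chr10:102395455-102395754, plus strand): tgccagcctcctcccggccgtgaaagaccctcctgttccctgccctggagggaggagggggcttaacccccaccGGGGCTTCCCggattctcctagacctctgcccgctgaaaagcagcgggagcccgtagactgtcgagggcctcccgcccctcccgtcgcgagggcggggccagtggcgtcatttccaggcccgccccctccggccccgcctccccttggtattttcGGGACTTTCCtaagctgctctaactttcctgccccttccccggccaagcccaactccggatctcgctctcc
REL (chr2:60881324-60881623, plus strand): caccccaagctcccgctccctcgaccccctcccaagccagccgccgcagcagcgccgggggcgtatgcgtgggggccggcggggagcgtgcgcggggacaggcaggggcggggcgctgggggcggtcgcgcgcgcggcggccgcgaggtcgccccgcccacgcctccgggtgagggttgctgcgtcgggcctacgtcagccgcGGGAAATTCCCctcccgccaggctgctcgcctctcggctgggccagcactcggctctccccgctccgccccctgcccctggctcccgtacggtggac
NFKBIA (chr14:35404700-35404999, minus strand): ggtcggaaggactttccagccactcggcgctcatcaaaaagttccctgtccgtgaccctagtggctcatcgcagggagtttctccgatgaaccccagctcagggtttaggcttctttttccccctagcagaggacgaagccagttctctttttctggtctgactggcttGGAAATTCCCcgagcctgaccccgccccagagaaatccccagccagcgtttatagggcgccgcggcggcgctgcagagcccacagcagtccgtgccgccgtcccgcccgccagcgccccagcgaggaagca

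These 4 promoters held 8 matches, of which 7 lay inside a replicate 1 peak, 3 inside a replicate 2 peak and 2 inside a peak of each list. The promoters were printed for a shared region within 1 kb, so peaks over them were largely fixed by that choice. Counted by promoter and not by match, a replicate 1 peak lay over 9 of the 12 promoters. A replicate 2 peak lay over 2 and a shared region over 5. Of all promoters in the table, a replicate 1 peak lay over 49.9%, a replicate 2 peak over 13.2% and a shared region over 20.2%. The 2 matches in both lists were those of the third NFKB2 start, which began 176 and 21 bases upstream of the start site. At the second NFKB2 start, the 3 matches (107, 106 and 78 bases upstream) lay in the replicate 1 peak and before the first base of the replicate 2 peak. The REL matches, 47 and 46 bases upstream, were likewise in the replicate 1 peak only, and the NFKBIA match, 81 bases upstream, was in the replicate 2 peak only. Outside these genes, TNFAIP3 and the second start of NFKBIB had 2 matches each and lay in a replicate 1 peak, NFKB1 had 1 match at its first start, and the RELA promoters had none. In all, 7 of the 12 promoters held a match, against 6.53% of the 22132 promoters of protein-coding genes in the table. A shared region lay over 24.2% of all promoters with a match and over 19.9% of those without. A match describes letters in the window and was not tested as a binding site. CpG pairs numbered 7 to 48 in the 12 promoters, with a median of 27, against a median of 21 over all promoters.

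All 10 genes had at least 1 peak of each replicate in their window, and all 10 had a shared region. Among all protein-coding genes, 83.2% had a replicate 1 peak in the window, 74.5% a replicate 2 peak and 59.5% a shared region. The windows held 65 peaks of replicate 1 and 33 of replicate 2, and 21 shared regions reached into them. The RELB region chr19:44988663-44991530 was counted although its replicate 2 peaks lay outside the window. At least 2 shared regions were found at 5 of the 10 genes (40.8% of all genes) and at least 4 at 2 of them, RELB and IKBKB (19.8%). Of the 21 regions, 15 reached into the gene itself, 7 met another protein-coding gene and 1 met none. Only 8 of the 10 genes had bases covered by both lists inside their own span, against 45.9% of all genes, RELA and NFKBIE being the ones without. The count of genes with a shared region fell to 4 of 10 when the limit on −log10 q was raised to 2 (21.8% of all genes), to 4 with the 50% of peaks of higher fold (27.0%) and to 5 with a reciprocal overlap of 50% (36.0%). With equal numbers of peaks from each list the count was 7. REL, NFKBIA and TNFAIP3 were lost there, and also at the raised limit, with higher fold and with reciprocal overlap. Counted by itself, replicate 2 kept peaks in the windows of 3 genes at the raised −log10 q limit (49.6% of all genes). With the peaks of higher fold it kept them in 5 (58.8%). Replicate 1 kept peaks in 9 (70.0%) and 8 (73.7%). Both replicate 2 counts were below the share of all genes, and both replicate 1 counts above it.

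**Figure D1:**
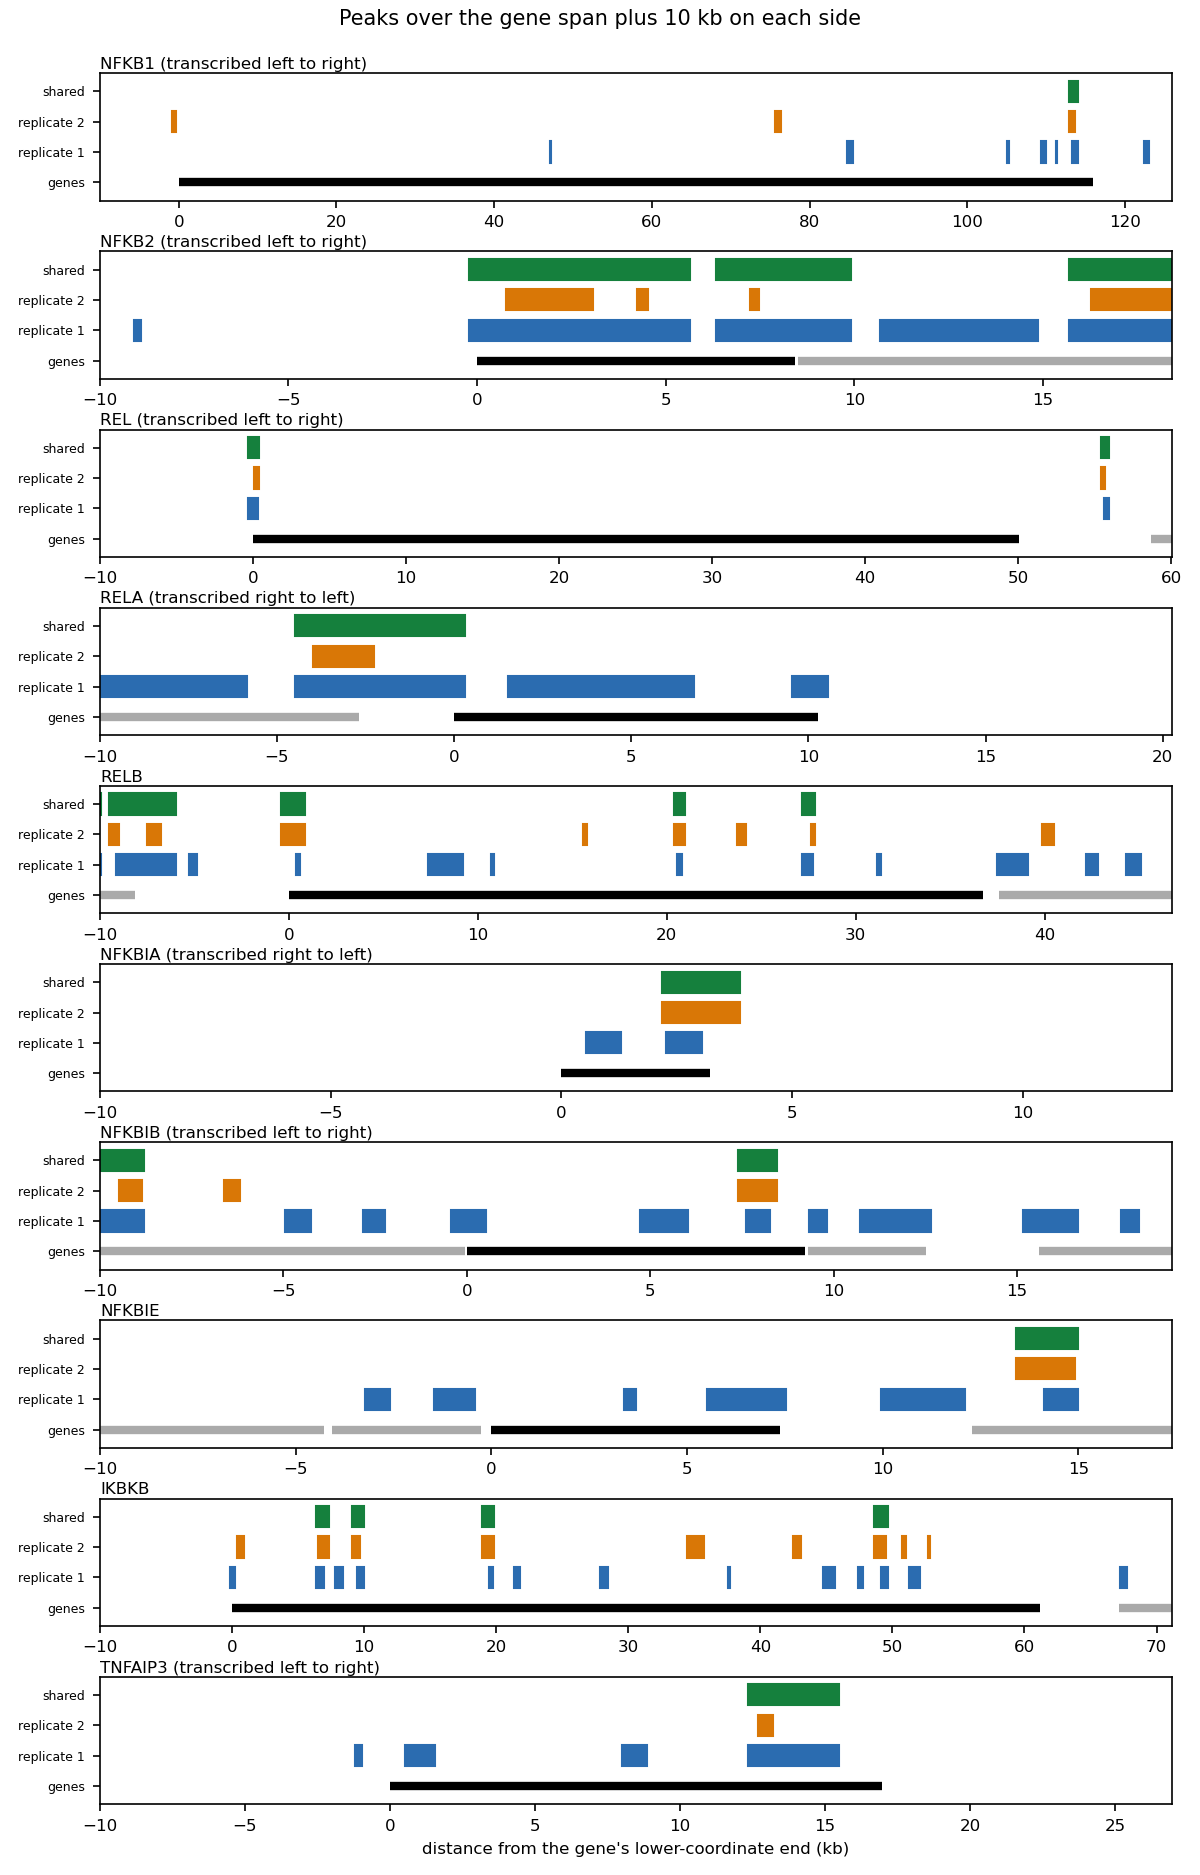
Peaks of replicate 1 (blue) and replicate 2 (orange) and shared regions (green) over each gene (black bar) plus 10 kb on each side, by distance from the gene's lower-coordinate end in kb; grey bars are neighbouring protein-coding genes, and bars at the panel edge continue beyond it. IKBKB holds 4 shared regions along its body, whereas the only shared region of NFKBIE lies over the neighbouring gene TMEM151B.

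Peaks in these windows were of ordinary strength for their lists. Fold enrichment ran from 2.64 to 4.29 in replicate 1, with a median of 3.19, and from 1.93 to 2.98 in replicate 2, with a median of 2.23. The 95% point of the list was passed by 6 of the 65 peaks in replicate 1 (3.71) and by 1 of the 33 in replicate 2 (2.84). The highest −log10 q was 3.36 in replicate 1 and 2.98 in replicate 2. Of the replicate 1 peaks, 21 (32.3%) overlapped replicate 2 and 44 did not, and of the replicate 2 peaks 22 (66.7%) overlapped replicate 1. Over the windows of all protein-coding genes these shares were 30.2% and 56.8%.

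**Figure D2:**
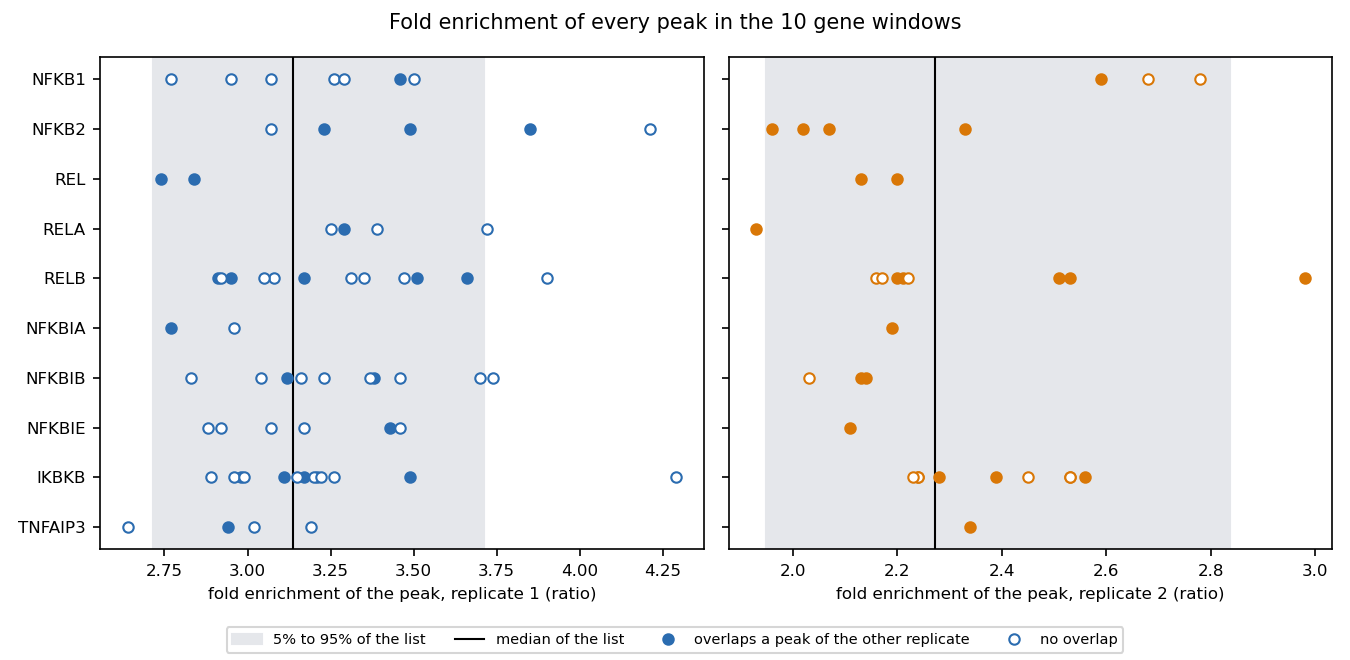
Fold enrichment (ratio, horizontal axis) of each of the 65 replicate 1 peaks (left, blue) and 33 replicate 2 peaks (right, orange) by gene; filled points overlap a peak of the other replicate, open points do not, the grey band spans 5% to 95% of each list and the line is its median. The highest point, 4.29 at IKBKB in replicate 1, is open, and the highest in replicate 2, 2.98 at RELB, is filled.

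NFKB1 and NFKB2 encode the precursors p105 and p100, which are processed to the DNA-binding subunits p50 and p52. NFKB1 (chr4:102501359-102617302, plus strand) is the longest of the 10 genes, and its 7 replicate 1 peaks and 3 replicate 2 peaks met in a single shared region. That region, chr4:102614211-102615429, lay in the last part of the body, 1873 bp short of the far end, with a fold enrichment of 3.46 in replicate 1 and 2.59 in replicate 2. The replicates did not meet at the start of the gene: replicate 2 had a peak at chr4:102500448-102500995 (fold 2.78), just before the first base, and the nearest replicate 1 peak was 47391 bp away.

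NFKB2 (chr10:102394110-102402529, plus strand) was covered by replicate 1 peaks along most of its length, and by replicate 2 peaks in shorter stretches. A replicate 1 peak of 5853 bp, chr10:102393891-102399743 (fold 3.49), began before the first start site and took in 2 replicate 2 peaks, the stronger with a fold of 2.33 and a −log10 q of 2.75. A second shared region of 3571 bp, chr10:102400454-102404024 (fold 3.85 and 1.96), crossed the far end of NFKB2 into PSD, a guanine nucleotide exchange factor gene that lies 90 bp beyond. The third, chr10:102409814-102416441 (3.23 and 2.02), lay wholly in PSD. The gene thus carried a shared region at each end, the only 1 of the 10 to do so. The strongest replicate 1 peak of this window, chr10:102385020-102385200 (fold 4.21, −log10 q 3.36), lay upstream in the flank and had no partner in replicate 2.

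REL, RELA and RELB encode the subunits with a transactivation domain, c-Rel, p65 and RelB. REL (chr2:60881574-60931612, plus strand) had only 2 peaks in each replicate, and all 4 were shared. The region at its start site, chr2:60881238-60881992, had a fold of 2.84 in replicate 1 and 2.2 in replicate 2, both below the medians of the lists. Only its replicate 1 peak covered the start site, as the replicate 2 peak began 76 bp inside the gene. The other region, chr2:60936968-60937484 (2.74 and 2.13), lay 5356 bp beyond the far end, before PUS10. The body of REL, a gene of 50039 bp, held no further peak.

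RELA (chr11:65653601-65663857, minus strand) had 4 replicate 1 peaks and 1 replicate 2 peak. A replicate 1 peak, chr11:65663123-65664143, covered the start site at the outer end of the gene but not the other start site, 941 bp inside. This peak was among the stronger of the list (fold 3.72, −log10 q 2.77), and no replicate 2 peak lay within 11798 bp of it. A shared region, chr11:65649114-65653915 (fold 3.29 and 1.93), entered the far end of RELA by 315 bp. The replicate 2 peak within it, at the low end of that list, lay outside RELA over the edge of SIPA1, a GTPase-activating protein gene, and the intergenic stretch. No base of RELA was therefore covered by both replicates.

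RELB (chr19:45001464-45038192) had the most shared regions reaching its window, 5, and the window held 12 replicate 1 peaks and 8 replicate 2 peaks. At its lower-coordinate end, chr19:45001063-45002310 had a fold of 3.66 in replicate 1 and 2.51 in replicate 2. In the body, chr19:45021868-45022408 was the region with the highest replicate 2 fold among the 10 genes (2.98, −log10 q 2.93), although its replicate 1 peak was below the median of its list (2.95). A further body region, chr19:45028624-45029311, had 2.91 and 2.21 with an overlap of 80 bp. The remaining pair, chr19:44988663-44991530 (3.17 and 2.35) and chr19:44991936-44995476 (3.51 and 2.53), lay in the flank over and beside CLPTM1. Of the former, the replicate 2 peaks lay wholly outside the window.

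NFKBIA, NFKBIB and NFKBIE encode the inhibitors IkB alpha, beta and epsilon, which mask the nuclear localisation signals of the subunits. NFKBIA (chr14:35401513-35404749, minus strand) is the shortest of the genes and had 2 peaks in replicate 1 and 1 in replicate 2. Its shared region, chr14:35403694-35405391, covered the start site and the first part of the gene, with a fold of 2.77 in replicate 1 and 2.19 in replicate 2. Both values were below the medians of their lists. The bases common to both replicates, 783 in number, lay within the gene and did not reach the promoter sequence printed above.

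NFKBIB (chr19:38899666-38908889, plus strand) had 10 replicate 1 peaks but 3 of replicate 2. Its start site carried a replicate 1 peak, chr19:38899240-38900195 (fold 3.74, −log10 q 3.01), that also met the edge of SIRT2, a sirtuin deacetylase gene 48 bp away, and the nearest replicate 2 peak was 5764 bp off. The shared region in the gene, chr19:38907066-38908123 (3.12 and 2.14), ended 766 bp before the far end. The other, chr19:38888758-38890867 (3.38 and 2.18), lay inside SIRT2.

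NFKBIE (chr6:44258166-44265551) had 6 replicate 1 peaks and a single replicate 2 peak, which lay outside the gene. Inside it, replicate 1 had chr6:44261554-44261872 (fold 3.46) and chr6:44263678-44265699 (3.07), the latter over the higher-coordinate end, and neither had a partner. The shared region, chr6:44271569-44273153 (3.43 and 2.11), was 6018 bp away in TMEM151B, a membrane protein gene.

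TNFAIP3 encodes A20, a ubiquitin-editing enzyme that shuts the pathway down after a stimulus. The gene (chr6:137866349-137883312, plus strand) had 4 replicate 1 peaks and 1 of replicate 2. Its shared region, chr6:137878686-137881842 (2.94 and 2.34), lay in the body, 1470 bp before the far end. The start site of the sequence table, 910 bp inside the gene span, lay in a replicate 1 peak, chr6:137866879-137867908 (fold 3.19), and the nearest replicate 2 peak was 11122 bp from that peak.

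IKBKB encodes IKK beta, the catalytic subunit that phosphorylates the inhibitors in the classical pathway. The gene (chr8:42271302-42332460) held 13 replicate 1 peaks and 9 replicate 2 peaks in its window, the most in each replicate, and 4 shared regions, all in the body. This number was 1 with the −log10 q limit of 2 or with reciprocal overlap, and 2 with the peaks of higher fold or with equal numbers of peaks from each list. The 4 regions were chr8:42277700-42278648 (fold 3.21 and 2.28), chr8:42280381-42281284 (3.11 and 2.39), chr8:42290211-42291103 (3.49 and 2.56) and chr8:42319897-42320983 (3.17 and 2.24). The strongest replicate 1 peak of all 65, chr8:42271189-42271519 (fold 4.29, −log10 q 3.31), sat on the lower-coordinate end. A replicate 2 peak, chr8:42271715-42272228 (fold 2.53), followed 195 bp further into the gene without overlap, so this end had a peak of each replicate but no shared region.

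At gene ends, 6 of the 10 genes had a shared region within 1 kb (NFKB2, REL, RELA, RELB, NFKBIA and NFKBIB), against 32.9% of all protein-coding genes. At RELA only the replicate 1 peak of that region came within 1 kb of the end. Counting only bases of both lists, a setting chosen after seeing the data, gave 5 genes, without RELA (26.9% of all genes). On the start side, for which the table of promoters gave the strand of 7 of the genes, the count was 3 (NFKB2, REL and NFKBIA), against 27.4% of the 15812 genes with an entry. With each list alone, 9 genes had a replicate 1 peak at an end (68.8% of all genes) and 7 a replicate 2 peak (37.1%). The count for shared regions fell to 1 with that limit on −log10 q raised to 2 (NFKB2, 7.55% of all genes), to 2 with the peaks of higher fold (NFKB2 and RELB, 7.65%) and to 1 with reciprocal overlap (NFKBIB, 9.90%). With equal numbers of peaks from each list the count was 4 (NFKB2, RELA, RELB and NFKBIB, 26.0%). REL and NFKBIA, counted on the start side, were lost in all of these settings. With 10 genes in 2 lists no test was made.

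Each gene was then set beside protein-coding genes of its chromosome whose length was within a factor of 1.5 of its own. Between 37.8% (the 127 genes like NFKBIE) and 79.2% (the 77 like NFKB2) of these had a shared region in their window. Within 1 kb of an end, a shared region was found for 62.3% of the genes like NFKB2, 58.0% of those like NFKBIA, 49.8% for RELB, 48.7% for RELA, 48.0% for NFKBIB and 28.1% for REL. For the 4 genes with no shared region at an end the shares were lower, with 26.0% for NFKBIE, 23.4% for TNFAIP3, 12.1% for NFKB1 and 11.3% for IKBKB. In numbers of peaks and shared regions IKBKB stood highest against its like: its 13 and 9 peaks compared with medians of 2 and 1 over 124 genes of chromosome 8, and 8 of the 124 (6.45%) had 4 or more shared regions. NFKB1 had 7 replicate 1 peaks against a median of 3 over 140 genes, NFKBIE 6 against 1, and NFKBIB 10 against 6 over 402 genes. NFKB2, REL, RELA and NFKBIA had fewer replicate 1 peaks than the median gene, with 5 against 6, 2 against 4, 4 against 5 and 2 against 4. A low count did not always mean little coverage. Replicate 1 peaks covered 58.1% of the NFKB2 window and 50.2% of the RELA window, the most of the 10. They covered 1.38% for REL and 6.65% for NFKBIA. RELA was the only gene with fewer shared regions than the median, 1 against 2 over 273 genes of chromosome 11.

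Counted in bases covered by both lists, all 10 genes were above the median of their like, as were 45.1% of all protein-coding genes. For NFKB1, NFKBIE, IKBKB and TNFAIP3 that median was 0, so any common base was enough. NFKB2 had the most, 4980 bases against a median of 1145, and 4 of its 77 like genes (5.19%) had as many. Of these bases, 2588 and 258 lay inside NFKB2, and the rest lay in PSD. RELB, with 1539 against 1417, and REL, with 323 against 160, lay close to the middle. Of the RELB bases, 923 lay in the flank over and beside CLPTM1. Of the 1254 bases for NFKBIB, 632 lay inside the gene and the rest in SIRT2. The count of 10 was 3 with the −log10 q limit of 2 (20.8% of all genes), 4 with the peaks of higher fold (26.3%) and 5 with reciprocal overlap (34.2%). Within the gene span alone, without the flanks, it was 7 (39.7%).

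**Figure D3:**
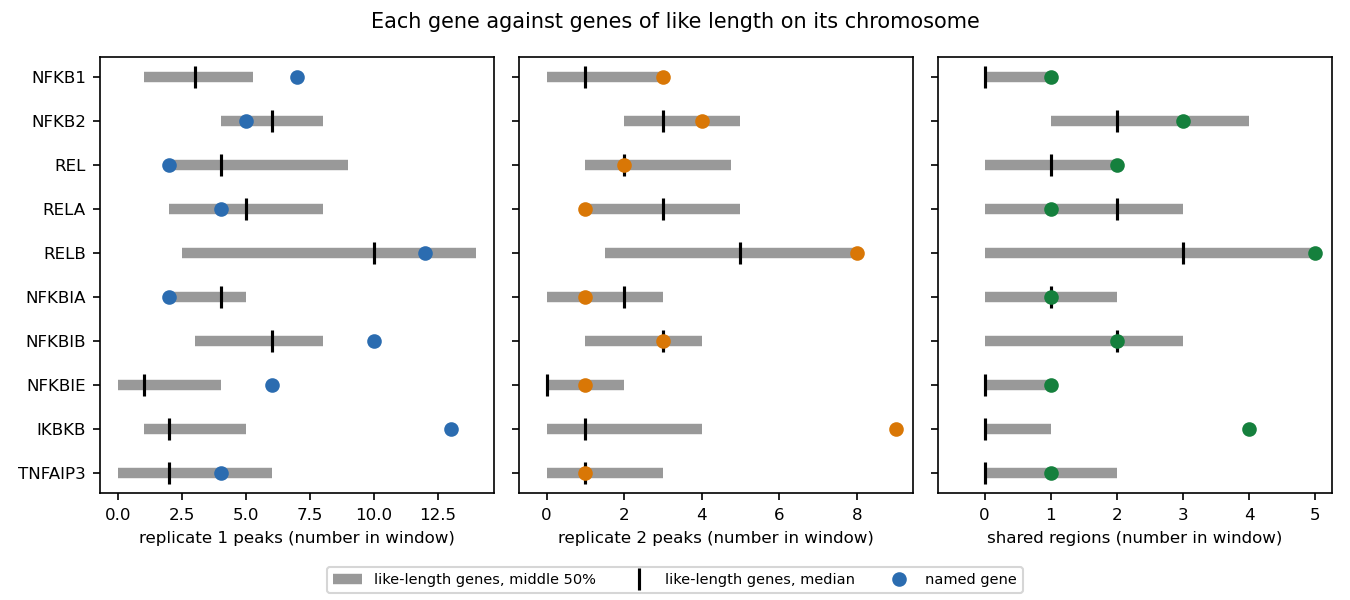
Number of replicate 1 peaks (left), replicate 2 peaks (middle) and shared regions (right) in the window of each gene (coloured points), with the median (tick) and the middle 50% (grey bar) of genes of like length on the same chromosome. IKBKB lies beyond the grey bar in all 3 panels, with 13, 9 and 4, and RELA, with 1, is the only gene left of the tick in the right panel.

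The stretches around the genes differed in how many peaks they held. Within the 1 Mb centred on NFKBIE there were 213 replicate 1 peaks and 118 of replicate 2, against medians of 53 and 24 around the protein-coding genes of chromosome 6. RELA had 185 and 120 against 119 and 58, and RELB had 233 and 133 against 168 and 90. IKBKB had 47 and 35 against 29 and 21, of which 13 and 9 were in its own window. NFKBIA had 31 and 17 against 99 and 57, and NFKB1 had 16 and 9 against 21 and 13. In replicate 1 the surroundings were denser than the chromosome's median for 6 genes, equal for REL and sparser for 3. In replicate 2 they were denser for 8 genes and sparser for 2. The part of local density in the comparisons with like-length genes was not tested.

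Among 74 other genes of the pathway, all matched in the gene table, 43 (58.1%) had a shared region in the window and 28 (37.8%) at a gene end, against 59.5% and 32.9% of all protein-coding genes. Adaptors and receptors had 14 of 21, with the most common bases at TRAF3, a brake on the alternative pathway (11 shared regions, highest fold 3.64 and 2.48), and at TRADD, the adaptor of TNF receptor 1 (5 regions, 3.59 and 2.12). Kinases and their partners had 7 of 10. MAP3K14, the NIK kinase of the alternative pathway, had 8 regions (3.77 and 2.19) and IKBKE 5 (3.72 and 2.15), whereas CHUK, which encodes IKK alpha, MAP3K7, which encodes TAK1, and its partner gene TAB3 had none. CHUK nonetheless had 2 replicate 1 peaks and 1 replicate 2 peak in its window.

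Ubiquitin enzymes and brakes had 11 of 15, with the most common bases at RBCK1, which encodes HOIL-1 of the linear ubiquitin ligase (3 regions, 3.52 and 2.1), and at NKIRAS2 (3 regions, 3.39 and 2.25). Of the 4 atypical inhibitors, NFKBID had 6 regions (3.74 and 2.64) and BCL3 had 5 (3.24 and 2.54), while NFKBIZ and NFKBIL1 had none. Target genes had 9 of 24, with the most common bases at BCL2L1, which encodes the survival protein BCL-XL (12 regions, 3.31 and 2.21), and at CSF2 (3 regions, 3.24 and 2.15). The windows of TNF, LTA, LTB and NFKBIL1, which are neighbours on chromosome 6, held no peak of either replicate and are not independent of each other. Target genes were also the shortest group, with a median length of 8144 bp against 24170 bp for all protein-coding genes. The total of 43 was 16 with the −log10 q limit of 2 (21.8% of all genes) and 17 with the peaks of higher fold (27.0%).

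**Figure D4:**
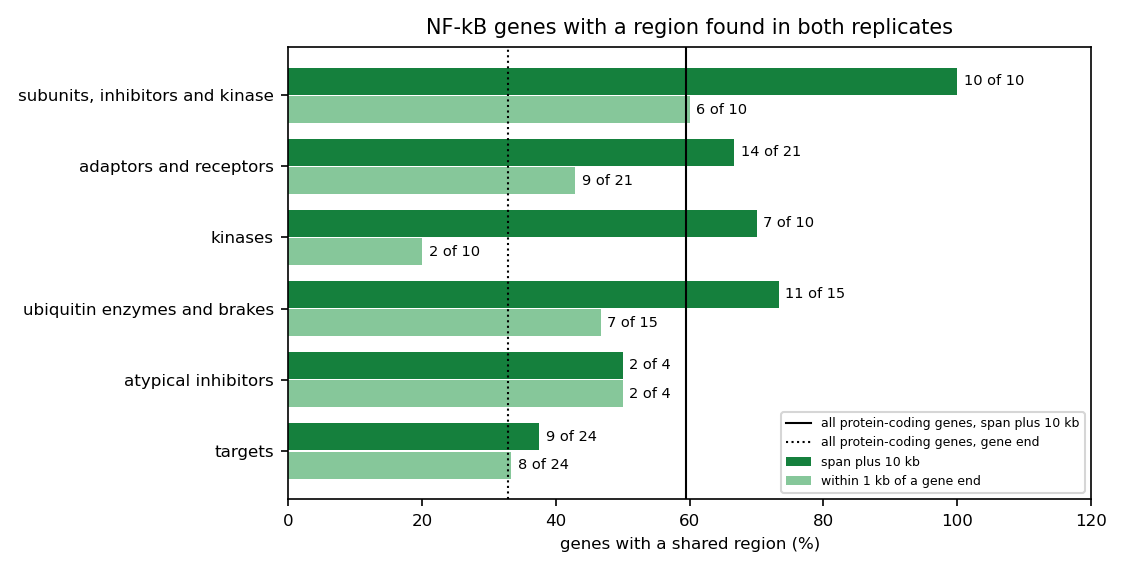
Share of genes (%) with a shared region in the span plus 10 kb (dark bars) and within 1 kb of a gene end (light bars) for the 10 genes and 5 other groups of the pathway, with counts beside the bars; the solid and dotted lines are the shares of all protein-coding genes, 59.5% and 32.9%. The 10 genes reach 100.0% in the window, and the 24 targets lie below the solid line at 37.5%.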

How the data were processed

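Broad peaks were deposited for 2 HA ChIP replicates of MDA-MB-231 cells, 1 list each; the labels name each list under both the ChIP and the input of its replicate, it was assigned to the ChIP, and how the 2 inputs were used was not stated. Per the submitters' processing notes, the tools include Bowtie2 2.2.9 and MACS2 2.1.1 and the build hg38; their roles, settings and filters were not stated there. Per the layout of the deposited lists, the authors' values are a score (column 5, the whole-number part of 10 times −log10 q in 99.99% of lines), a fold enrichment, which is a ratio over the caller's background (column 7), and −log10 of the p-value and of the q-value (columns 8 and 9). Read depth is unknown. These belong to each peak and served only for description and filtering inside its own list.

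Peaks of chromosomes 1 to 22 and X were joined at an overlap of 1 bp (Python 3.11.15, pandas 2.3.3, numpy 2.4.6) and counted in windows around genes of the RefSeq table for GRCh38.p14. The interval functions were checked against a base-by-base count on simulated lists. Genes were named by rule: all 10, and in each pathway group the 2 with the most common bases, plus kinases and atypical inhibitors without a shared region. The neighbours named are genes that meet a shared region, a peak or the edge of a window; CHUK's and TNF's neighbourhoods were singled out after their values were seen. The genes and lists were chosen with earlier results of these data known, so counts are descriptions and no test was made. The promoter of each gene with a shared region within 1 kb of it was printed, except the first NFKB2 start.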

Additional observations from a re-analysis of the deposited data

How the results depend on the processing

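With peaks of a −log10 q of at least 2, shared regions were left in the windows of 4 of the 10 genes (21.8% of all genes) and at the ends of 1 (7.55%). Replicate 2 peaks were left in the windows of 3 (49.6%), and 3 had more common bases than the like-length median (20.8%). Shared regions were left in 16 of 74 pathway genes (21.8%). With the 50% of peaks of higher fold these counts were 4, 2, 5, 4 and 17 (27.0%, 7.65%, 58.8%, 26.3% and 27.0% of all genes). With reciprocal overlap the counts for windows, ends and like-length genes were 5, 1 and 5 (36.0%, 9.9% and 34.2%). On the start side only, 3 genes had a shared region, among 7 with a strand. Fewer peaks or genes entered under the limits on q and fold and on the start side by construction, and reciprocal overlap changed only what counts as shared. Leaving out replicate 2 or replicate 1 gave 10 and 10 genes with a peak in the window (83.2% and 74.5% of all genes). At an end there were 9 and 7 (68.8% and 37.1%), and above the median 8 and 9 (48.3% and 48.5%). Of the pathway genes, 64 and 55 had a peak in the window (83.2% and 74.5%). With equal numbers of peaks the counts for windows, ends and like-length genes were 7, 4 and 7. The share of all genes at an end fell from 32.9% to 26.0%. REL, NFKBIA and TNFAIP3 had no shared region there, nor under the limits on q and fold or with reciprocal overlap. Other flanks, end windows, length ranges, equal numbers of peaks and joining within 1 kb stayed within 1.5 times. Counting only common bases or regions outside other genes, chosen after seeing the data, also stayed within 1.5 times. Of 110 values of shared regions per gene, each for 1 gene under 1 setting, 60 moved by more than that, 42 of them down. No paired analysis was possible because no result comes from a test. Most peaks lay near the calling limit, and read depth is unknown, so absence of a peak was not measured as absence of signal.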

Other observations

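Chromosome X held few shared regions, with 32 of its 848 protein-coding genes (3.77%) having one in the window. Of the 3 pathway genes on it, 2 did, IRAK1 and IKBKG, which lie near each other and are not independent of each other. IRAK1, a kinase below the interleukin-1 receptor, had 1 at a gene end (fold 3.10 in replicate 1 and 2.72 in replicate 2), and IKBKG, which encodes the IKK scaffold NEMO, had 1 (3.37 and 2.44), while TAB3 had no peak in either list. Of the chemokine targets, CXCL8, CXCL1 and CXCL2, which lie near each other on chromosome 4, each had 1 replicate 1 peak and no replicate 2 peak in the window. All of these genes were singled out after their values were seen.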
